A study of Mus musculus with 60 samples.

Results

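The enzymes that build the cores of mucin-type O-glycans were followed across 8 mouse tissues. Of 7 genes chosen by name, 6 were measured: C1galt1, C1galt1c1, Gcnt1, Gcnt3, B3gnt3 and B3gnt6. No probe set was matched to Gcnt4. The 6 genes were found through the RefSeq identifiers of the probe sets and had 8 of the 963 probe sets that could be named, with 2 each for Gcnt1 and Gcnt3. Where a gene had 2, the one with the higher mean over all arrays is used and the other is given beside it.

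Mucin-type O-glycosylation starts when a single N-acetylgalactosamine is placed on serine or threonine in the Golgi. C1galt1 adds galactose to it and makes core 1, and C1galt1c1 (Cosmc) is the chaperone that C1galt1 needs in order to fold. Gcnt1 branches core 1 into core 2, B3gnt6 makes core 3 on the same starting sugar, and Gcnt3 makes core 2 and core 4, the branched form of core 3. B3gnt3 extends core 1 with N-acetylglucosamine. St6galnac2, targeted in 1 of the mouse lines, sialylates the starting sugar or core 1, and so acts on the same substrates.

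The 60 samples, total RNA of 18 animals, were each read on a custom-made Affymetrix chip for genes of glycan biology, with the stated purpose of helping to pick tissues for glycan profiling. In the ST6GALNAC2 line, 3 WT (+/+) animals were sampled in 4 tissues (thyroid, lymph node, brain, intestine), and 3 KO (-/-) animals in the same tissues, except that only 2 gave intestine. WT animal 9099 has 2 brain arrays. The second line was a B4GALNT1 -/- B4GALNT2 -/- double knockout (DKO), and DKO was sampled in 5 animals in thymus, mammary gland and kidney and in 3 in testes. Its WT groups held 4 animals in kidney, 3 in thymus, 3 in testes and 2 in mammary gland. Brain and small intestine also came from 3 C57 WT mice of no stated sex. All animals were labelled healthy, and ages and strains of the lines are not given in the sources used here. Values are the authors' log2 expression values, and every difference below is a difference of log2 values.

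The targeted genes were not lower across the labelled knockouts. St6galnac2 read from 5.79 to 6.27 on the thyroid arrays labelled KO and from 5.49 to 5.94 on the WT ones, and B4galnt2 read from 3.64 to 4.15 in kidney labelled DKO and from 3.58 to 4.05 in WT. B4galnt1 was lower on all DKO arrays than on the WT arrays in thymus only (4.73 to 5.23 against 5.45 to 8.72) and overlapped in the other 3 tissues. The WT thymus range includes the arrays of N3738 and N3740, which did not follow the labelled tissue, as described below. Where the probes lie relative to the deletions is not given in the sources used here, so these readings do not check the labels, and directions between genotypes below are those of the labels. Galntl5 (11.70 on average) marked the testes arrays, Umod (12.26) the kidney arrays, Reg3b (13.08) the intestine arrays and Bcan (9.87), the proteoglycan brevican, the brain arrays. Fcer2a, a B cell gene, read 8.97 in lymph node, and Chga of endocrine granules ranged from 5.77 to 13.06 in thyroid. Ccl25, the chemokine of thymic stroma, read 4.40 to 4.85 on the thymus arrays that resembled each other and 11.56 to 11.78 in intestine. Angpt1 and Dll4 were the other markers of that list. Angpt1 averaged 10.32 on these thymus arrays and 6.71 in mammary gland, the next tissue. Dll4 averaged 5.77 on them, beside 5.84 in thyroid and 5.84 in lymph node, so only Angpt1 of this list stood out in thymus. No gene that defines mammary gland or thyroid follicles was among the markers.

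On 4 WT arrays the values did not follow the labelled tissue. For 1 of the 2 brain arrays of 9099, the values, less the average over tissues, correlated at -0.27 across probe sets with brain and at 0.96 with intestine. The intestine array of the same animal correlated at -0.27 with intestine and at 0.94 with brain. The thymus arrays of WT animals N3738 (0.0469) and N3740 (0.0325) had next to no correlation with thymus. These 4 arrays are left out of all tissue levels and tissue differences below, and results between genotypes are given with and without them. The thymus levels and tissue differences thus rest on 5 DKO animals and 1 WT animal.

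The order of the tissues differed from gene to gene, and intestine and kidney stood out. The ST6GALNAC2 and B4GALNT lines share no tissue. In orders over all 8 tissues, tissue and line therefore cannot be told apart between tissues of different lines. Each tissue was set against the average of the remaining 3 from the same line (limma, adjusted over 963 probe sets, called at an adjusted p under 0.05 and a log2 difference of at least 1). Of 48 values of gene and tissue, 15 were called, 8 higher and 7 lower. Intestine was higher in 4 of the 6 genes, against 13.6% of all probe sets called higher there. For C1galt1c1, intestine set against single tissues was called higher than lymph node only. Kidney was higher in 2 of 6, against 11.7% of all. The 7 lower calls fell in brain (3, background 17.3%), testes (2, background 22.4%), lymph node (1, background 12.4%) and thyroid (1, background 13.6%). The brain and thyroid calls are set against a mean that includes intestine, and none of the genes concerned was called between thyroid, lymph node and brain. In whole tissue, fewer cells of a type and less RNA per cell cannot be told apart. The median difference over all probe sets was itself below 0 in brain (-0.16), intestine (-0.24) and kidney (-0.14).

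**Figure D1:**
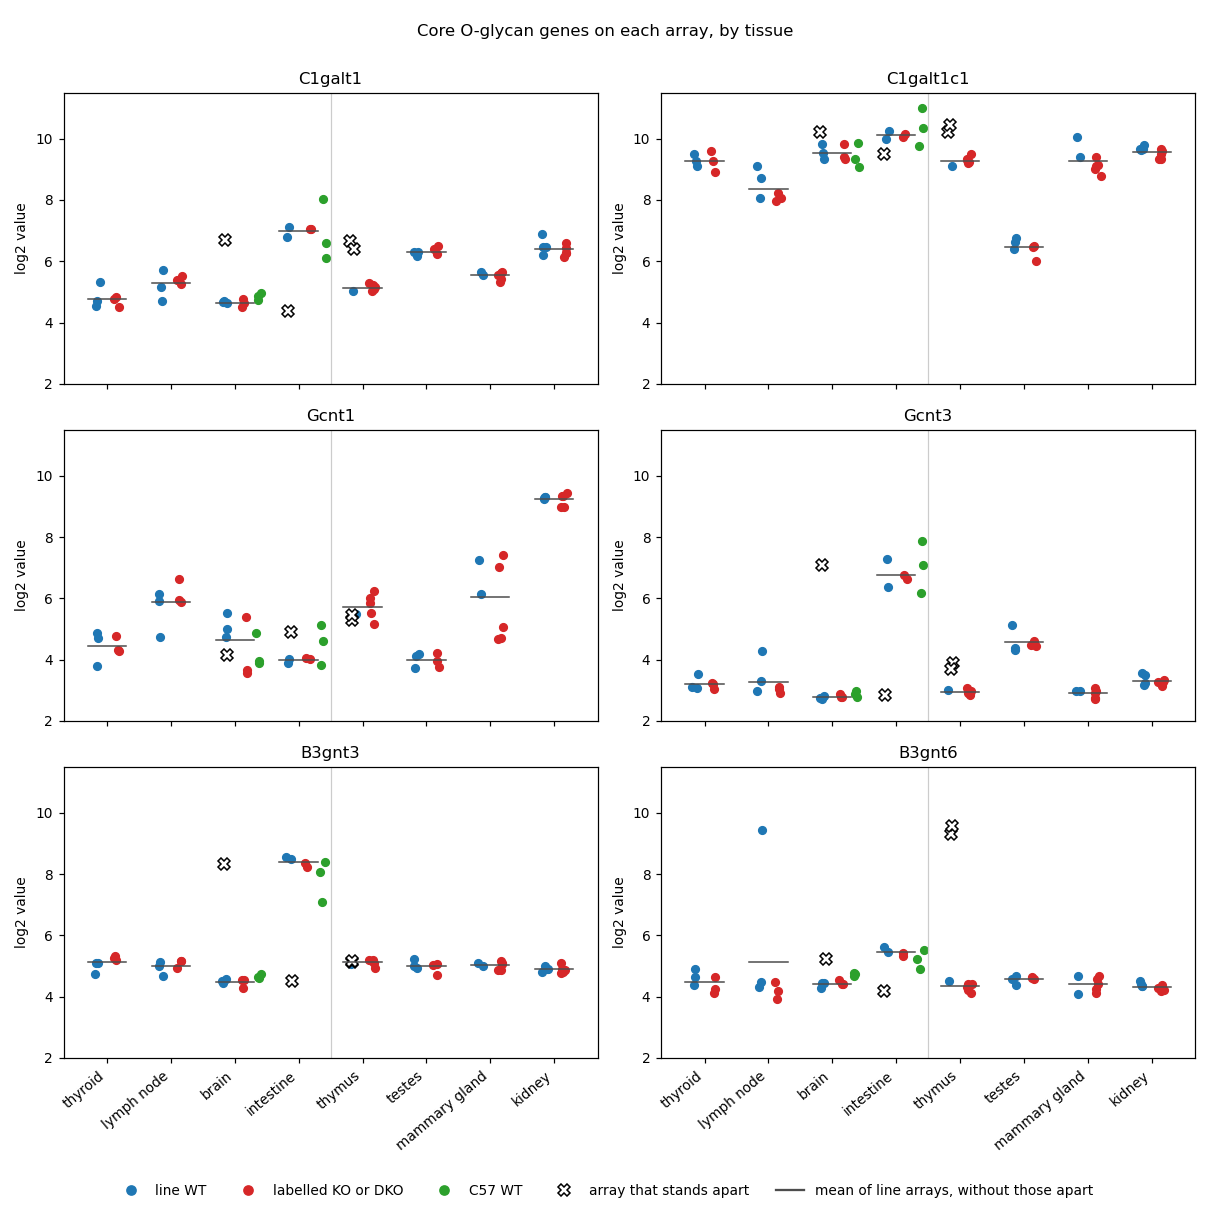
Log2 value (vertical axis, the same scale in every panel) of the 6 core O-glycan genes on each array, by tissue, with points for line WT, labelled KO or DKO and C57 arrays, crosses for the 4 arrays that stand apart and a line for the mean of the line arrays without them. Gcnt1 is highest in kidney (mean 9.24), Gcnt3 and B3gnt3 in intestine (6.76 and 8.41), and C1galt1c1 is lowest in testes (6.46).

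**Figure D2:**
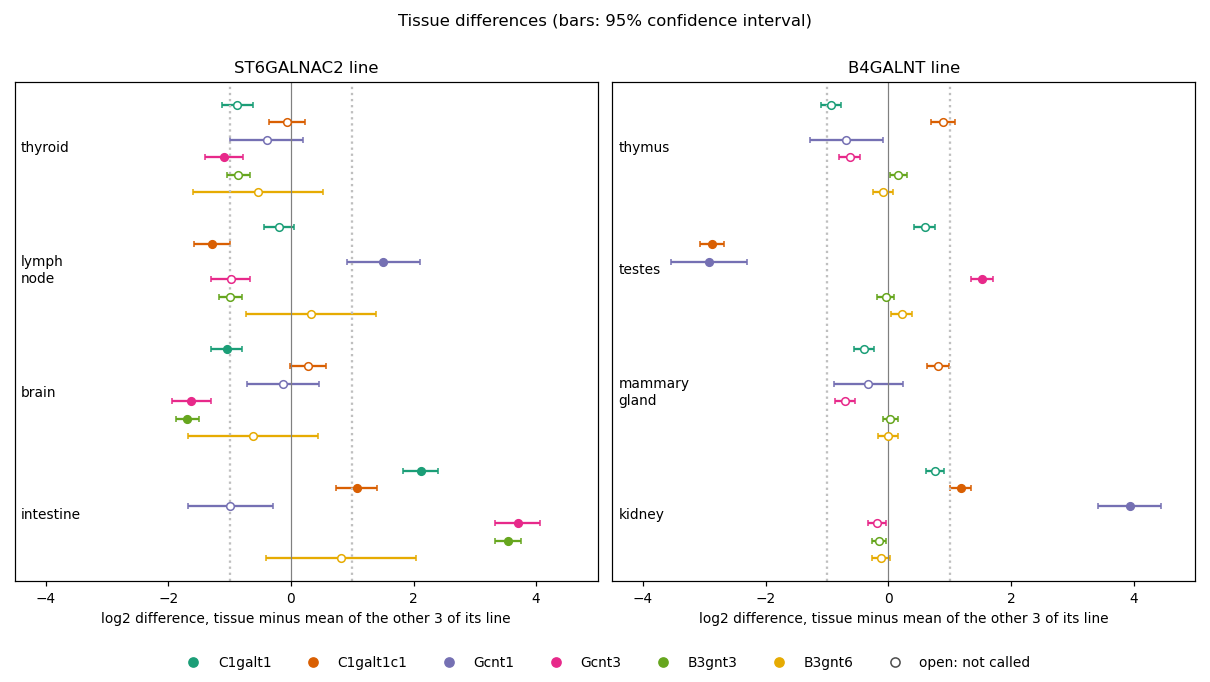
Log2 difference (horizontal axis) of each tissue from the average of the remaining 3 of that line for the 6 genes, with bars for the 95% confidence interval, filled points for called differences and dotted lines at the limits of -1 and 1. Intestine has 4 filled points to the right, and the largest difference is that of Gcnt1 in kidney (3.94).

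C1galt1, the core 1 galactosyltransferase (chr6:7845224-7872042 in GRCm38), was highest in intestine and lowest in brain. In intestine it read 7.10 (9362) and 6.78 (9094) in WT and 7.05 (9361) and 7.06 (9093) in KO. Their range overlapped with that of kidney (6.41 ± 0.23, SD, n = 9), and kidney with testes (6.31 ± 0.12, n = 6). Testes did not overlap with mammary gland (5.54 ± 0.12, n = 7), whereas mammary gland, lymph node (5.29 ± 0.34, n = 6), thymus (5.14 ± 0.12, n = 6), thyroid (4.78 ± 0.29, n = 6) and brain (4.65 ± 0.08, n = 6) each overlapped with the next. Intestine exceeded the mean of thyroid, lymph node and brain by 2.11 ± 0.14 (SE, adjusted p = 8.91e-11, limma). Brain was lower by 1.05 (a difference of -1.05 ± 0.12, adjusted p = 2.04e-07, limma). This fell short of the limit in 3 of 14 recalculations. Centring each array on its median gave -0.96, and the smallest difference in any recalculation was -0.70. The mean that brain is set against includes intestine. Lymph node exceeded brain by 0.64 ± 0.14 and thyroid exceeded it by 0.13 ± 0.14, neither of them called.

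The core 1 chaperone C1galt1c1 had a different order, and the lowest tissue was testes. Testes arrays read 6.40 (N9700), 6.77 (N3740) and 6.65 (N3738) in WT and 6.45 (N5895), 6.0 (N5894) and 6.51 (N5893) in DKO. All 6 lay below every other array, with a gap of 1.21 to lymph node, the next tissue. The difference from thymus, mammary gland and kidney was -2.88 ± 0.10 (adjusted p = 2.76e-19). In the same testes C1galt1 was not low: its difference was 0.59 ± 0.09, under the limit for a call. The order of the tissues for the enzyme was not that for its chaperone, and their Pearson correlation over 56 values of animal and tissue was 0.020, a description of values that share arrays.

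C1galt1c1 lies on the X chromosome (chrX:38630783-38635143 in GRCm38), and the other 5 measured genes are autosomal. It had the lowest testes difference of the 24 X-linked genes on the array. Of these 24, 13 were called lower in testes (54.2%), beside 194 of 885 genes of other chromosomes (21.9%), with median differences of -1.06 and 0.010. The X-linked genes were counted after the value of C1galt1c1 was seen, so this is a description. In the other 7 tissues between 0% and 20.8% of the X-linked genes were called lower.

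**Figure D3:**
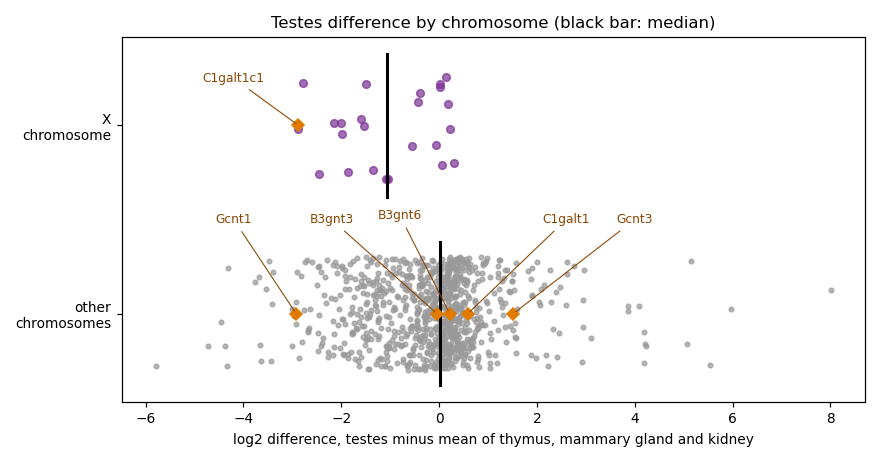
Log2 difference of testes from the mean of thymus, mammary gland and kidney (horizontal axis) for 885 genes of other chromosomes and 24 X-linked genes, with a black bar at each median and diamonds for the 6 core O-glycan genes. C1galt1c1 (-2.88) is at the low end of the X-linked genes and Gcnt1 (-2.92) is among the low genes of other chromosomes.

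Outside testes, C1galt1c1 was high in intestine (10.11 ± 0.12, n = 4) and low in lymph node (8.36 ± 0.44, n = 6). The intestine values, 10.25 and 9.98 in WT and 10.07 and 10.15 in KO, lay above all thyroid and lymph node arrays of the line and above all brain arrays but the 1 that resembled intestine. Its differences from the rest of the line were 1.07 ± 0.16 in intestine (adjusted p = 1.01e-05) and -1.29 ± 0.14 in lymph node (adjusted p = 1.36e-07). The intestine difference is from a mean that includes lymph node. Brain minus intestine was -0.59 ± 0.19 and thyroid minus intestine -0.85 ± 0.19, neither called, and lymph node minus intestine was -1.77 ± 0.19, a call. Without intestine in the comparison, lymph node was 1.18 below brain (-1.18 ± 0.17), a call, and thyroid exceeded lymph node by 0.92 ± 0.17, short of the limit. With WT animals only the intestine difference was 0.99, just under the limit. Lymph node ranged from 7.98 to 9.09, and the high array was that of WT animal 9362. Kidney was higher than thymus, testes and mammary gland on average by 1.18 ± 0.08 (adjusted p = 1.07e-12), a mean that includes the low testes values. Kidney (9.57 ± 0.16), brain (9.54 ± 0.23), thymus (9.28 ± 0.14), thyroid (9.28 ± 0.25) and mammary gland (9.28 ± 0.41) each overlapped with the next.

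The 250 bases before the first annotated start of C1galt1 and of Gcnt1 (RefSeq, GRCm38.p6, gene strand) are shown because their tissue patterns were so unlike, C1galt1 being highest in intestine and Gcnt1 among its lowest there and highest in kidney. C1galt1 is on the plus strand (chr6:7844974-7845223) and Gcnt1 on the minus strand (chr19:17372845-17373094). Capitals mark every match on either strand to one of 3 motifs, which do not overlap here. The TATA box was searched as the letters TATAAA. For the CCAAT box the letters were those of its name, and the GC box was searched as the letters GGGCGG.
C1galt1: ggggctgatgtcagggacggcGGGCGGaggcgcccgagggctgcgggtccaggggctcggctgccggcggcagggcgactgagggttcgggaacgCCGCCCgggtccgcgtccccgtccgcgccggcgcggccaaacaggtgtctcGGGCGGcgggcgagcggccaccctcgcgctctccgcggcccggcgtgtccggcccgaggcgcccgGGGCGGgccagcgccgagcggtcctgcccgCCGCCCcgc
Gcnt1: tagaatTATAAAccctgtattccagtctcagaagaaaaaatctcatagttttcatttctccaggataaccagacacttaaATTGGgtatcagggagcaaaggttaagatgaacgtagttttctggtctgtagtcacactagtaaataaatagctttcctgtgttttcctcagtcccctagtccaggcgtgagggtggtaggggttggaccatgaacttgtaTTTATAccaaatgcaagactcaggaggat
The C1galt1 window holds 5 GC boxes, 0 TATA boxes, 0 CCAAT boxes and 44 CpG pairs, and the Gcnt1 window 2 TATA boxes, 1 CCAAT box, 0 GC boxes and 2 CpG pairs. Gcnt1 has other annotated starts, and their windows differ from the one shown. The window at chr19:17339506-17339755 holds 0 TATA boxes, 1 CCAAT box, 0 GC boxes and 2 CpG pairs. The window at chr19:17356668-17356917 holds 0 TATA boxes, 0 CCAAT boxes, 0 GC boxes and 10 CpG pairs. Among 32851 promoter windows of this length, 32.7% hold a GC box, 12.4% a TATA box and 33.8% a CCAAT box, and the median CpG count is 6. B3gnt3 had 1 window in the table, which lies inside the gene as annotated, with 1 GC box and 8 CpG pairs. Promoters of C1galt1c1, Gcnt3 and B3gnt6 were not analysed here. A match is a run of letters and was not tested for binding.

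Gcnt1, the core 2 branching enzyme known for its part in leukocyte selectin ligands (chr19:17326141-17372844), was highest in kidney. Kidney arrays read 9.29, 9.24, 9.27 and 9.31 in WT and 9.35, 9.0, 8.98, 9.42 and 9.33 in DKO. All 9 were at least 1.55 above the next highest array of any other tissue. The difference from thymus, testes and mammary gland was 3.94 ± 0.25 (adjusted p = 1.72e-13). The second probe set of Gcnt1 gave 2.32 ± 0.08 for the same comparison, with kidney arrays at 6.01 to 6.67 and the other tissues between 3.63 and 4.57. Both probe sets thus put kidney first, with different sizes.

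Below kidney, Gcnt1 varied widely between animals in lymph node, mammary gland and brain. Lymph node read 6.16, 5.91 and 4.74 in WT and 6.65, 5.95 and 5.88 in KO, 1.51 ± 0.28 above thyroid, brain and intestine (adjusted p = 1.22e-04, against 12.9% of all probe sets called higher in lymph node). The low lymph node array, that of WT animal 9094, was also low in B cell genes: the mean of Cd22, Fcer2a, Cd72 and Siglecg was 7.31 there and 9.34 to 9.90 on the other 5, and whether this bears on Gcnt1 was not tested. The second probe set gave 0.28 ± 0.09 for lymph node, so the call rests on the first one. Testes (3.99 ± 0.21) were lower than the rest of their line by 2.92 (-2.92 ± 0.30, adjusted p = 2.09e-09), a mean that includes kidney, and the second probe set gave -0.94 ± 0.10, short of the limit. Set against single tissues, testes were also called lower than mammary gland (-1.95 ± 0.36), and thymus was called higher than testes (1.68 ± 0.37).

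In mammary gland Gcnt1 split into separate ranges. The WT arrays read 6.15 (N3738) and 7.25 (N9686), and the DKO arrays 7.01 (N5895) and 7.42 (N5892) beside 5.06 (N5894), 4.67 (N5893) and 4.71 (N5891). Prol1, a gene of salivary and lacrimal glands and the only measured gene of its marker list, read 9.74, 9.74, 12.47 and 9.79 on the 4 high arrays in that order. It read 2.61, 2.54 and 2.52 on the 3 low ones. The part of such tissue in the Gcnt1 values was not tested. Connective tissue genes (5 of 5 measured) averaged 8.50 to 9.79 on the high arrays and 9.17 to 10.02 on the low ones. The second probe set spanned only 3.72 to 4.45 over the 7 arrays.

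Gcnt1 also varied between brain arrays. It read 5.53 (9362), 5.01 (9099, the array that did not stand apart) and 4.74 (9094) in WT, 5.39 (9100), 3.67 (9361) and 3.57 (9093) in KO, and 4.86, 3.95 and 3.90 in C57 mice. Ncan, the neural proteoglycan neurocan, was 8.30, 7.93 and 7.99 on the 3 arrays with the highest Gcnt1, those of 9362, 9099 and 9100. It was 10.30 on the array of 9094 and 9.26 on the C57 array with Gcnt1 at 4.86. On the 4 arrays with Gcnt1 below 4 it read 10.20 to 10.67, a range that includes the array of 9094. The mean of the 6 measured neural genes differed less, from 9.17 to 9.66 over these 9 arrays. The second probe set of Gcnt1 stayed between 3.63 and 3.93 in brain. The part of the neural genes in the Gcnt1 values was not tested.

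**Figure D4:**
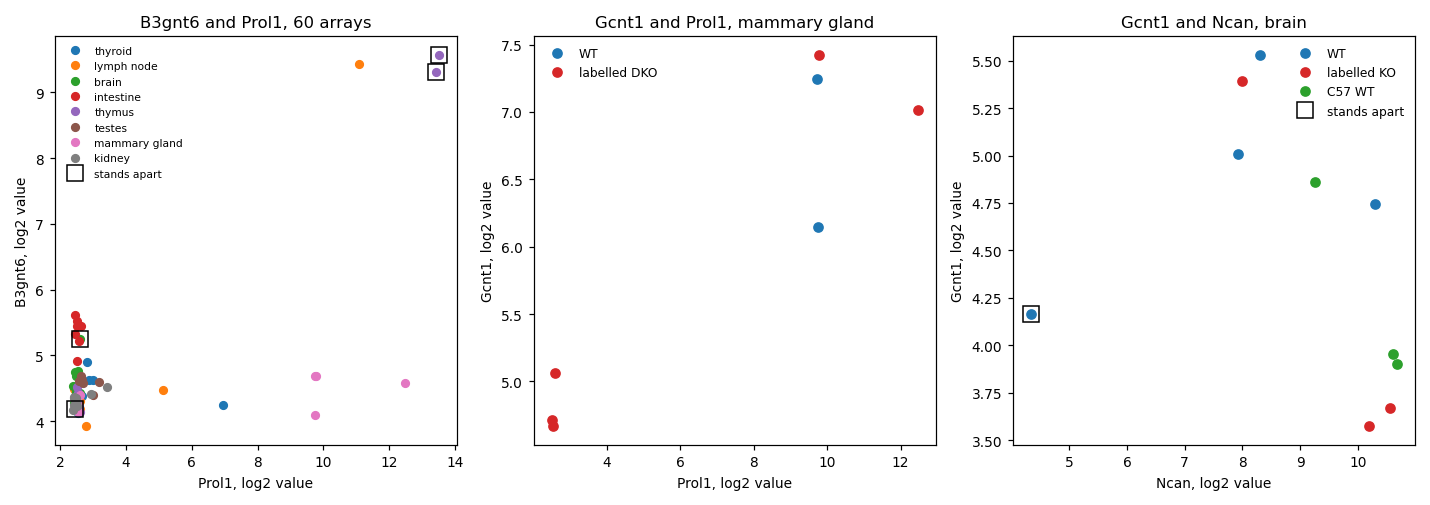
Left, B3gnt6 against Prol1 (log2 values) on 60 arrays coloured by tissue; centre, Gcnt1 against Prol1 in 7 mammary gland arrays; right, Gcnt1 against Ncan in 10 brain arrays, with squares around arrays that stand apart. B3gnt6 exceeds 9 on 3 arrays, all with Prol1 above 11, and stays near 4 to 5 on 4 mammary gland arrays with Prol1 above 9.

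Gcnt3, the mucin-type core 2 and core 4 enzyme (chr9:70031495-70039890), was highest in intestine and next in testes. Intestine read 7.27 and 6.37 in WT and 6.63 and 6.75 in KO, 3.70 ± 0.17 above thyroid, lymph node and brain (adjusted p = 5.22e-13). The second probe set gave 4.0 ± 0.21. Testes read 4.32, 4.37 and 5.11 in WT and 4.44, 4.49 and 4.62 in DKO, without overlap with kidney, the next tissue. That was 1.52 ± 0.09 above thymus, mammary gland and kidney (adjusted p = 1.59e-14, against 9.66% of all probe sets called higher in testes). The other 6 tissues overlapped in a chain from 3.31 ± 0.14 in kidney to 2.79 ± 0.05 in brain.

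Most Gcnt3 values were low for this array. On 45 of 60 arrays Gcnt3 was below 4.21, the 25th percentile of all values, as were Gcnt1 on 17, B3gnt6 on 8 and the other 3 genes on 0. The lower calls of Gcnt3 in brain (-1.62 ± 0.15) and thyroid (-1.09 ± 0.15) are differences from a mean that includes intestine, and thyroid (3.04 to 3.53) overlapped with lymph node (2.91 to 4.29). The lymph node array at 4.29 was that of animal 9362. Without this array Gcnt3 in lymph node was -1.17 ± 0.11 and was called too, where it had been -0.98 ± 0.15, just under the limit (the second probe set was called with the array, -1.13 ± 0.18). Without animal 9362 altogether, thyroid gave -0.93 and lost its call.

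B3gnt3, the core 1 extension enzyme (chr8:71691373-71702626), was far higher in intestine than in any other tissue. Intestine read 8.55 and 8.49 in WT and 8.37 and 8.23 in KO, and every other line array that did not stand apart was at 5.34 or less, a gap to the next tissue, thymus, of 3.02. The difference from thyroid, lymph node and brain was 3.54 ± 0.10 (adjusted p = 1.62e-16). The 6 tissues from thymus (5.12 ± 0.10) to kidney (4.89 ± 0.10) overlapped in a chain. Brain (4.49 ± 0.11) lay below all of them without overlap with kidney, and its difference from the rest of its line was -1.69 ± 0.09, against a mean that includes intestine. Thyroid exceeded brain by 0.62 ± 0.11 and lymph node exceeded it by 0.52 ± 0.11, both under the limit for a call. On the array labelled brain that resembled intestine, B3gnt3 read 8.34 and Gcnt3 7.10, and on the array labelled intestine that resembled brain they read 4.50 and 2.84.

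B3gnt6, the core 3 enzyme of gut epithelium, read between 4.91 and 5.62 in intestine and above 9 on 3 arrays of other labels (chr7:98192415-98199475). Intestine read 5.45 and 5.62 in WT, 5.33 and 5.44 in KO and 5.53, 5.23 and 4.91 in C57 mice. The lowest of these lay only just above the highest thyroid array (4.90), so no clear gap separated the C57 arrays from other tissues. Apart from the 3 high arrays, every array with another label was at or below 4.90, except the brain array that resembled intestine (5.24). The 3 arrays were the WT thymus arrays of N3740 (9.31) and N3738 (9.57), which stand apart, and the WT lymph node array of 9362 (9.43). The remaining thymus and lymph node arrays read 4.13 to 4.52 and 3.92 to 4.49.

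Prol1 was high on the same 3 arrays, at 13.41, 13.51 and 11.08. It read 2.41 to 5.12 on the other lymph node arrays and 2.5 to 2.61 on the other thymus arrays. In mammary gland, however, the 4 arrays with Prol1 from 9.74 to 12.47 had B3gnt6 at only 4.09 to 4.69. The part of glandular tissue in these 3 values was not tested. B3gnt6 in intestine differed from the rest of its line by 0.82 ± 0.59 (adjusted p = 0.215), and without the lymph node array of 9362 by 1.05 ± 0.11 (adjusted p = 1.95e-07), which is then a call. That 1 array decides it.

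Pairs of tissues within a line gave 27 calls among 72 values, 6 higher and 21 lower in the tissue named first, beside 28.5% of all probe sets over the 12 pairs. Intestine exceeded each of brain, thyroid and lymph node in C1galt1, Gcnt3 and B3gnt3. Brain minus intestine gave the largest of these differences, -2.37 ± 0.16 in C1galt1, -3.99 ± 0.20 in Gcnt3 and -3.92 ± 0.12 in B3gnt3, where 17.2% of all probe sets were called lower in brain than in intestine. Thyroid and brain differed in 0 of 6 genes at this limit (28.5% of all probe sets in either direction), and thymus and mammary gland in 0 of 6 (11.7%). C1galt1c1 was lower in lymph node than in intestine (-1.77 ± 0.19), and lower in testes than in mammary gland (-2.76 ± 0.12) and kidney (-3.04 ± 0.11). B3gnt6 was not called in a pair, its differences running from -1.08 ± 0.68 to 0.71 ± 0.61. In the B4GALNT line, Gcnt1 in testes was 5.14 below kidney (-5.14 ± 0.33), where 19.5% of all were called lower.

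Thymus and mammary gland had 0 of 6 genes called against the other tissues of their line, beside 16.9% and 15.8% of all probe sets. Their differences were below 1 in size, from -0.94 ± 0.08 (C1galt1) to 0.89 ± 0.09 (C1galt1c1) in thymus and from -0.70 ± 0.08 (Gcnt3) to 0.81 ± 0.09 (C1galt1c1) in mammary gland. Several of these had adjusted p-values under 0.05 and missed only the size limit. Both C1galt1c1 values are set against a mean that includes testes. Connective tissue genes (5 of 5 measured) were at like levels in both tissues, averaging 9.54 to 10.20 on the 6 thymus arrays and 8.50 to 10.02 on the 7 of mammary gland, beside 7.06 to 7.96 in kidney and 6.47 to 6.62 in testes. Dcn, the proteoglycan decorin, was 12.57 in each. The part of connective tissue in the likeness of thymus and mammary gland was not tested.

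Genes whose values ran most like each member over the 56 values of animal and tissue are given with Pearson's r, as a description. For B3gnt3 they were Lgals4 (0.973), Muc13 (0.971) and Reg4 (0.968), and for Gcnt3 Bmp8a (0.947), Muc13 (0.937) and Reg4 (0.935). Lgals4 is an intestinal galectin and Muc13 a membrane mucin of gut epithelium. Gcnt1 ran most like Renbp (0.935), Umod (0.874), the uromodulin of kidney tubules, and Galnt11 (0.843). C1galt1 ran most like Npl (0.840), Galk1 (0.830) and Slc35f2 (0.829), and C1galt1c1 most like Atg5 (0.904), Rfk (0.868) and Ugdh (0.861). B3gnt6 had no close counterpart, with Prg2 (0.669), Nans (0.667) and Galnt12 (0.60) nearest. Within the family, Gcnt3 and B3gnt3 correlated at 0.880 and Gcnt3 and C1galt1 at 0.747, while Gcnt1 and Gcnt3, both core 2 enzymes, correlated at -0.306.

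The genes before and after the cores were counted by list, each count beside the share of all probe sets called the same way in that tissue. Each value is a difference from the mean of the remaining 3 tissues of the line. A high tissue in that mean makes the value lower. Of 19 polypeptide GalNAc transferases, which place the first sugar, 6 were higher (13.6% of all) and 5 lower (17.7% of all) in intestine (median -0.12, and -0.24 over all genes), with Galnt6 at 2.99 ± 0.21 and Galnt16 at -1.99 ± 0.16. In kidney 2 were higher (11.7% of all) and 1 lower (9.66% of all), with Galnt11 at 4.02 ± 0.09 and Galntl5 at -2.86 ± 0.16 (median -0.13, and -0.14 over all genes). The Galntl5 value is set against a mean that includes testes. In testes 3 were higher (9.66% of all) and 4 lower (22.4% of all), with Galntl5 at 8.02 ± 0.20 and Galnt4 at -2.37 ± 0.13 (median 0.172, and -0.003 over all genes). Brain had 6 higher (17.9% of all) and 2 lower (17.3% of all), with Galnt13 at 3.59 ± 0.20 and Galnt12 at -1.85 ± 0.29 (median -0.09, and -0.15 over all genes). In lymph node 1 was higher (12.9% of all), Galnt12 (1.21 ± 0.29), and 2 lower (12.4% of all), with Galnt13 at -1.27 ± 0.20 (median -0.05, and -0.04 over all genes). The Galnt13 value is set against a mean that includes brain.

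Of 6 sialyltransferases that act on N-acetylgalactosamine or core 1, 1 was higher (13.6% of all probe sets) and 1 lower (17.7% of all) in intestine (median -0.21, and -0.24 over all genes). St6galnac2 was the higher one (2.73 ± 0.12), and St3gal2 the lower (-2.17 ± 0.22). In testes, where 9.66% of all were higher and 22.4% lower, St6galnac2 was higher by 4.19 ± 0.35 and St3gal1, which caps core 1, lower (-1.41 ± 0.10), with a list median of 0.305 beside -0.003 over all genes. In thymus St6galnac2 was lower (-3.10 ± 0.34), the only call among the 6 there, beside 6.96% of all called lower (list median -0.08, and -0.05 over all genes). That value is set against a mean that includes testes, as is the lower call of St6galnac2 in mammary gland (-1.16 ± 0.32). St6galnac2 was thus higher in testes, where C1galt1c1 was lower, and higher in intestine, as were C1galt1 and C1galt1c1.

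Of 17 measured enzymes that extend or cap branches (18 listed), 6 were higher (13.6% of all probe sets) and 3 lower (17.7% of all) in intestine (median 0.43, and -0.24 over all genes), with St3gal4 at 4.39 ± 0.32 and Chst2 at -2.10 ± 0.25. In thyroid 2 were higher (7.79% of all) and 7 lower (13.6% of all), with St3gal6 at 1.5 ± 0.17 and St3gal4 at -2.04 ± 0.28 (median -0.82, and 0.058 over all genes). These thyroid values are set against a mean that includes intestine, where St3gal4 was high. In kidney 3 were higher (11.7% of all) and 2 lower (9.66% of all), with B3galt5 at 2.52 ± 0.26 and Chst1 at -1.71 ± 0.17 (median -0.03, and -0.14 over all genes). Lymph node had 2 higher (12.9% of all) and 2 lower (12.4% of all), led by Fut7 (1.41 ± 0.15), a fucosyltransferase of selectin ligands, and B4galt4 (-1.26 ± 0.13), with a median of -0.05 beside -0.04 over all genes. Of 12 measured carriers of mucin-type glycans (17 listed), 2 were higher (13.6% of all) and 2 lower (17.7% of all) in intestine, with Muc13 at 6.06 ± 0.09 and Glycam1 at -2.82 ± 0.25, the latter against a mean that includes lymph node (median -0.41, and -0.24 over all genes). Glycam1, a ligand of L-selectin, was the 1 higher in lymph node (8.0 ± 0.22, 12.9% of all), and Muc13 (-1.81 ± 0.08) the 1 lower (12.4% of all), the latter against a mean that includes intestine (list median 0.317, and -0.04 over all genes).

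Between genotypes 0 of 48 values were called, with all arrays as labelled and again without the 4 arrays that stand apart (limma, with sex as a covariate where both sexes occur). Without adjustment 4 of the 48 had p under 0.05. Over all 963 probe sets 0% were called in thyroid, lymph node, brain, intestine, thymus and mammary gland, 0.312% in testes and 0.104% in kidney. The widths of the intervals show what these groups could resolve. In kidney the 95% interval of Gcnt1 ran from -0.30 to 0.12, and in intestine with all arrays that of Gcnt3 ran from -4.03 to 6.15. Without the arrays that stand apart the Gcnt3 interval was -0.82 to 0.55.

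**Figure D5:**
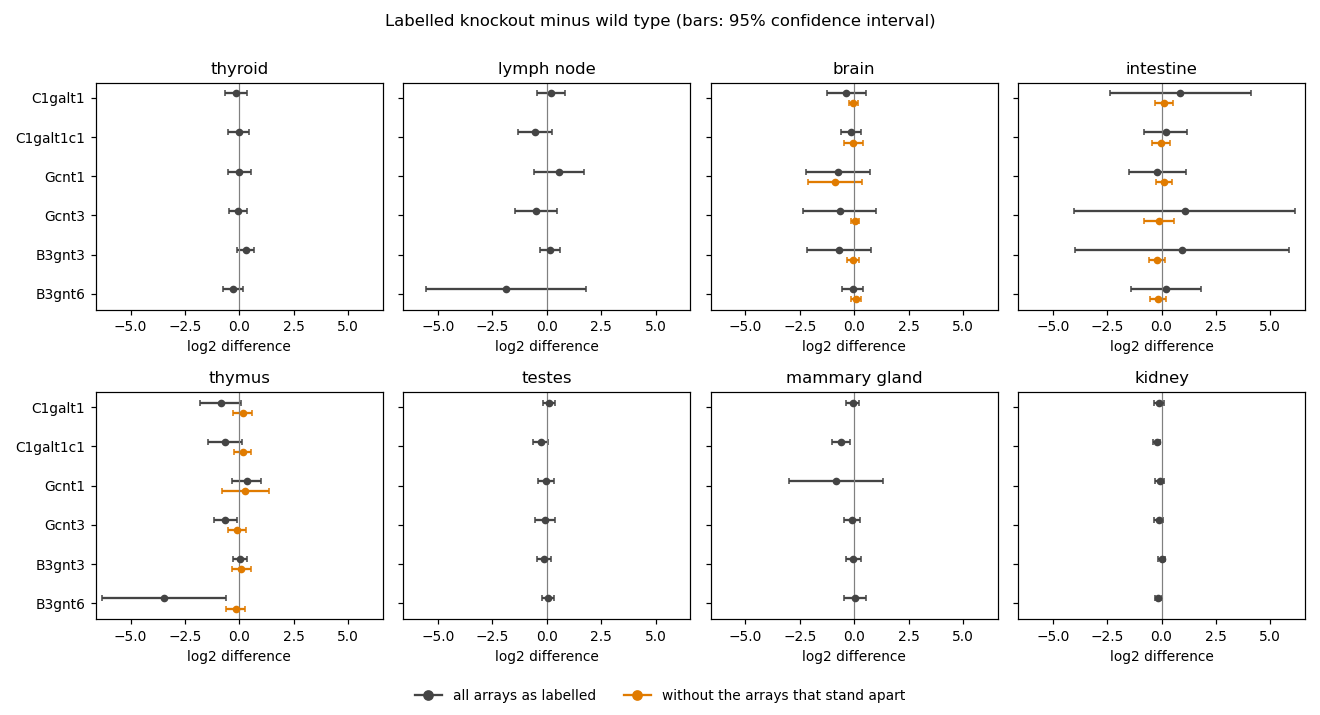
Log2 difference of labelled knockout minus wild type (horizontal axis) for the 6 genes in 8 tissues, with bars for the 95% confidence interval, all arrays in dark grey and, where a tissue holds arrays that stand apart, the values without them in orange. Without those arrays the interval of Gcnt3 in intestine goes from -4.03 to 6.15 to -0.82 to 0.55, and that of Gcnt1 in thymus widens.

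C1galt1c1 was called between genotypes in no tissue of the B4GALNT line. In mammary gland its values were 9.15, 9.02, 8.78, 9.10 and 9.39 in DKO, all below the WT values of 9.41 and 10.07, a difference of -0.61 ± 0.18 (adjusted p = 0.389). In kidney they were 9.33, 9.33, 9.49, 9.59 and 9.65 in DKO and 9.64, 9.79, 9.68 and 9.67 in WT, with 1 DKO array inside the WT range (-0.23 ± 0.08, adjusted p = 0.294). Testes gave -0.29 ± 0.16 (adjusted p = 0.474). The mean over the 4 tissues was -0.45 ± 0.12 (adjusted p = 0.056), not called, beside 0.623% of all probe sets called lower and a median of -0.09 over all probe sets. Without the arrays that stand apart it was -0.25 ± 0.08, with WT thymus then held by 1 animal. Without animal N9700 it was -0.58 ± 0.08 and called (adjusted p = 1.9e-05, limma). WT thymus is then held only by arrays that stand apart.

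In thymus the differences moved with the 2 WT arrays that stand apart. C1galt1 read 6.67 and 6.39 on them, 5.02 on the WT array of N9700 and 5.02 to 5.31 in DKO, and C1galt1c1 10.22 and 10.44 on them, 9.10 on that of N9700 and 9.19 to 9.51 in DKO. The differences of DKO from WT were -3.45 ± 1.22 for B3gnt6, -0.86 ± 0.40 for C1galt1, -0.67 ± 0.33 for C1galt1c1 and -0.64 ± 0.24 for Gcnt3 (adjusted p from 0.233 to 0.261). Without both arrays they were -0.17 ± 0.18, 0.15 ± 0.18, 0.15 ± 0.16 and -0.12 ± 0.17, with WT then held by 1 animal. Leaving out N9700 instead leaves only the arrays that stand apart as WT, and then all 4 were called lower, B3gnt6 at -5.09 ± 0.16. B3gnt3 read 5.15 and 5.17 on these arrays, within the range of the other thymus arrays.

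The 2 probe sets of Gcnt3 gave unlike values in testes. The first one read 4.32, 4.37 and 5.11 in WT and 4.44, 4.49 and 4.62 in DKO, a difference of -0.08 ± 0.20. The second read 4.6, 5.36 and 5.11 in WT and 4.52, 3.81 and 4.46 in DKO, all below WT, a difference of -0.76 ± 0.23 (adjusted p = 0.275), not called.

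In the ST6GALNAC2 line, several of the largest differences shrank when 1 array was left out. B3gnt6 in lymph node was lower in KO by 1.87 (-1.87 ± 1.44, adjusted p = 0.801), and without the WT array of 9362 the difference was -0.14. C1galt1 in intestine was 0.87 ± 1.05 with all arrays and 0.11 ± 0.16 without the WT intestine array that resembled brain. Gcnt1 in brain was -0.74 ± 0.56 (adjusted p = 0.905) and -0.88 ± 0.48 without the array that stands apart, where the KO array of 9100 lay within the WT range. In thyroid all 3 KO values of B3gnt3 (5.19, 5.25, 5.34) lay above the WT values (4.74, 5.09, 5.08), a difference of 0.29 ± 0.17 (adjusted p = 0.989).

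Whether the genotype difference itself varied between the tissues of a line was tested with a moderated F test in limma, and 0 of 12 were called (2 at an unadjusted p under 0.05, both in the B4GALNT line). B3gnt6 in the B4GALNT line came nearest (adjusted p = 0.058, beside 3.43% of all probe sets called), and without the arrays that stand apart its adjusted p was 0.859. The mean over the 4 tissues was called for 0 of 12 (3 at an unadjusted p under 0.05, all in the B4GALNT line), 0% of all probe sets being called in the ST6GALNAC2 line and 0.831% in the B4GALNT line. Of the measured genes of the 4 lists, 1 was called between genotypes in any tissue. It was St6galnac2 in kidney, which was lower in DKO (-0.65 ± 0.08, adjusted p = 0.00661).

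Between WT animals of the ST6GALNAC2 line and C57 mice, limma called 0 of 12 values (before adjustment 0 had p under 0.05, and 2 in brain without the arrays that stand apart), beside 0% of all probe sets in brain and in intestine. The C57 intestine arrays spread widely: C1galt1 read 8.03, 6.10 and 6.59, and Gcnt3 7.88, 6.17 and 7.09. Gcnt3 differed by -1.55 ± 1.23 with the WT intestine array that resembled brain and by -0.22 ± 0.55 without it. Gcnt1 in brain was 0.72 ± 0.37 higher in the line (adjusted p = 0.466), and 0.86 ± 0.32 without the array that stands apart (adjusted p = 0.174).

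Between females and males, limma called 0 of 12 values (before adjustment 1 had p under 0.05), in kidney beside 9.03% and in mammary gland beside 0.312% of all probe sets. C1galt1 in kidney was -0.30 ± 0.12 in females relative to males (adjusted p = 0.124), and C1galt1c1 in mammary gland 0.38 ± 0.16 (adjusted p = 0.433). The 95% interval of Gcnt1 in kidney ran from -0.05 to 0.39, so a sex difference of more than 0.39 in size lies outside it. Gcnt3, B3gnt3, C1galt1c1 and B3gnt6 differed by 0.15, -0.10, 0.12 and -0.07 in kidney. In mammary gland the Gcnt1 interval ran from -1.30 to 2.64, over values that fell into separate ranges. Gcnt3, B3gnt3, C1galt1 and B3gnt6 differed there by 0.009, -0.02, 0.16 and 0.24.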

How the data were processed

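The authors deposited 1 table of log2 expression values made by RMA (per the submitters' processing notes), which corrects background, normalizes between arrays and summarises probes into probe sets. Whether all 60 arrays were normalized together is not given in the sources used here. Of 1246 probe sets, 963 were named through the supplied RefSeq gene table (909 genes), 283 were not, and 48 genes had several. Of several, the one with the highest mean was used.

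Linear models were fitted with limma 3.58.1 in R 4.3.3 and tested on simulated data first. P-values were adjusted over the 963 probe sets by Benjamini-Hochberg, and calls need an adjusted p under 0.05, and between tissues also a log2 difference of at least 1. Tissue fits hold both genotypes with terms for genotype and sex. The 2 brain arrays of 1 animal were averaged. An array stands apart where its correlation with its own tissue is under 0.3; the lowest kept is 0.525. The array table gives no background signal per probe, and array medians ran from 5.30 to 5.76. Number of arrays limits the precision.

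The rule for named genes took all members in every comparison, of each list and tissue the called genes with the largest rise and fall, and for each member the 3 most similar genes. All members were tested in every comparison, but the text writes out only part of their values, and of the lists only some tissues, chosen after the values were seen. Members and lists were chosen with earlier results of these data known. In 1 animal the sex field and the title differ for intestine, and the title was used. Animals link the tissues of a line. Deviations of arrays of the same animal correlated at a median of 0.0056 (ST6GALNAC2 line) and 0.058 (B4GALNT line). The main fits between tissues were therefore not blocked by animal. The mean genotype difference of each line was instead fitted with the animal as a block. The correlation within animals in that fit was -0.118 (ST6GALNAC2 line) and 0.073 (B4GALNT line). Promoter windows were available for 4 of the 7 genes.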

Additional observations from a re-analysis of the deposited data

How the results depend on the processing

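Of the 15 called tissue differences, each kept its direction in all 227 recalculations, and 15 of these recalculations fell short of a call. The count of calls ran from 13 (all arrays as labelled) to 19 (WT animals only), and between pairs of tissues from 26 to 27. With the animal as a block it was 15, and the paired fit changed no call. Against the other 7 tissues in 1 fit, Gcnt3 in thyroid (-0.59), C1galt1c1 (-0.78) and Gcnt1 (0.38) in lymph node, Gcnt3 in testes (0.92) and C1galt1c1 in kidney (0.70) were short of the limit. That fit mixes the lines, so tissue and line cannot be told apart in it. Between genotypes the count of calls was 4 when all groups of a line were fitted together, all 4 in thymus, and ran from 0 to 4 when single animals were left out. For the mean over tissues it also ran from 0 to 4. Both maxima came without N9700, which leaves only arrays that stand apart as WT thymus. Where leaving out an animal left 1 WT mammary gland array, it was assumed to vary like the DKO arrays. The counts for C57 mice and for sex were 0 under each alternative run. The recalculations without the lymph node array of 9362 and with the second probe sets were chosen after seeing the data.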
